A study of Mus musculus with 2 samples.

Results

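The genes described here encode the machinery that receives IL-4 at the cell surface: the receptor chains Il4ra, Il2rg and Il13ra1, the Janus kinases Jak1, Jak2, Jak3 and Tyk2, and the insulin receptor substrates Irs1 and Irs2. They are 9 of 21887 protein-coding genes in the RefSeq table on GRCm38.p6 (mm10), and they were taken by name. Every region over a gene body and 10 kb on each side was assigned to that gene. This gave 67 of 226476 regions in the IL-4 library and 37 of 165968 regions in the untreated library. Both libraries were made by CUT&Tag with an antibody against PHLPP1, a phosphatase known for acting on AKT, from wild-type mouse alveolar macrophages obtained by lavage of the lung. In this assay the antibody directs a transposase that tags the DNA around it. One library came from cells given IL-4 at 20 ng/ml for 4 h and the other from untreated (UT) cells, with 1 library per group. The treatment field and the title give these groups, while the treatment protocol text of both samples describes IL-4 alone, and the wild-type genotype comes from that protocol, since the genotype field names the cells. The sources used here did not state the number, age or sex of the mice.

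IL-4 binds the chain IL-4Rα, encoded by Il4ra. That chain then pairs with the common γ chain, encoded by Il2rg, to form the type I receptor, or with IL-13Rα1, encoded by Il13ra1, to form the type II receptor, which also binds IL-13. JAK1 is attached to IL-4Rα, JAK3 to the common γ chain, and TYK2 and JAK2 to IL-13Rα1. The kinases phosphorylate IL-4Rα, which then recruits STAT6 and the adaptors IRS1 and IRS2. The adaptors lead to PI3K and AKT, and IRS2 is the adaptor chiefly linked with alternative activation of macrophages. Il2rg and Il13ra1 lie on the X chromosome.

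There were no replicates, so all differences describe 2 libraries and carry no test. Without a control-antibody library in hand, tagging by anything other than the PHLPP1 antibody was not separated. The fold of a region is the authors' ratio of the fragment pileup at the summit to the background of the same library. The constant background was 15.9 fragments in the IL-4 library and 13.9 in the untreated library, a ratio of 1.14. The lowest pileup listed over the constant background was 26 in the IL-4 library and 23 in the untreated library. The sources used here did not state the depth in reads. Of 15 genes that define alveolar macrophages, 13 had a region at the start in each library. Of 10 marker genes each, the IL-4 library had start regions at 4 for lymphocytes, 5 for granulocytes, 8 for lung epithelium and 5 for fibroblasts and endothelium. The untreated library had them at 3, 4, 5 and 1 of these. Over all genes with a known strand, 62.9% had a start region in the IL-4 library and 51.7% in the untreated library. Where a marker gene had no known strand, a region at either end counted. This held for 3 macrophage, 3 lymphocyte, 4 lung epithelium and 6 fibroblast and endothelium genes. A region does not measure expression, and what other cells gave to the libraries was not tested.

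The sequences before the starts of the receptor chains are shown because their start regions ranged from none in either library to 1 in both, and those of Jak3 and Irs2 because they had the lowest and the highest ratio of observed over expected CpG among the members outside X. Each is the stretch of 250 bases before the start in the RefSeq promoter table on GRCm38.p6, read along the gene. Capitals mark GGGCGG (the SP motif), CCAAT (the NF-Y motif) and ATGNAAAT, each on either strand. The stretches are chr7:125552021-125552270 (plus strand) for Il4ra, chrX:101268256-101268505 (minus) for Il2rg, chrX:36111858-36112107 (plus) for Il13ra1, chr8:71676133-71676382 (plus) for Jak3 and chr8:11008930-11009179 (minus) for Irs2.
Il4ra: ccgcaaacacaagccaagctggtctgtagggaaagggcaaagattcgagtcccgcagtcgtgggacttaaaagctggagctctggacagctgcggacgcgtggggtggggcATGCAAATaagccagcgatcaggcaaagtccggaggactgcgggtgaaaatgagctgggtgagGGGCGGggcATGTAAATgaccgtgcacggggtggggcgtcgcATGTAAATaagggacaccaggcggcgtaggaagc
Il2rg: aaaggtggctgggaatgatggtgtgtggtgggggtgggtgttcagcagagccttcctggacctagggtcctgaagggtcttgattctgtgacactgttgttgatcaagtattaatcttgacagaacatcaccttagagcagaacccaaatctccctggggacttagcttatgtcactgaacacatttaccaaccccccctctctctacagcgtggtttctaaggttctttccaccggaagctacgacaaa
Il13ra1: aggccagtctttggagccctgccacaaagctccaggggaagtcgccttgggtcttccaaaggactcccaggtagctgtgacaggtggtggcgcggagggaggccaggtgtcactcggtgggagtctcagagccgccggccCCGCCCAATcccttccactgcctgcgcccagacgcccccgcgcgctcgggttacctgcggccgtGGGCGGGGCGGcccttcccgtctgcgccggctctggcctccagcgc
Jak3: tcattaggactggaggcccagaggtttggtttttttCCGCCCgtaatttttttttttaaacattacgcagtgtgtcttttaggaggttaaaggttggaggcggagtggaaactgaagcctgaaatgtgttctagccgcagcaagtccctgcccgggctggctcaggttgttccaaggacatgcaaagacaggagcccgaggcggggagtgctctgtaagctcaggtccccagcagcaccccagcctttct
Irs2: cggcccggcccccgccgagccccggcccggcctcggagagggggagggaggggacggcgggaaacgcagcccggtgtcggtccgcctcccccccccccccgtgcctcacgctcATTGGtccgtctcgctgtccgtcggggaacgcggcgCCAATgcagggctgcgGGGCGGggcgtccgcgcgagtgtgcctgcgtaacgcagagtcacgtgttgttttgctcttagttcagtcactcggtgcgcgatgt

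The Il2rg stretch held 3 CpG and had the lowest observed over expected CpG ratio of the members, 0.199. The ratio was 0.472 at Jak3, 0.671 at Il13ra1, 0.843 at Il4ra and 1.03 at Irs2, against a median of 0.537 over 17492 promoters. GGGCGG was found at all members except Il2rg, 8 of 9, and in 42.7% of all promoters. CCAAT was found at Il13ra1, Jak1, Tyk2 and Irs2, and in 36.5% of all promoters. At Il13ra1 a CCAAT overlapped a GGGCGG match on the other strand. No member held TTC and GAA with a gap of 4 bases (the STAT6 motif, in 5.40% of all promoters) or with a gap of 3 bases (other STAT factors, 6.65%). Nor did any hold GAGGAAGT (PU.1, 2.17%), TGANTCA (AP-1, 6.18%), GTAAACA (FOXO, 2.57%) or TATAAA (the TATA box, 12.4%). Such a search covers these letters in these windows only. ATGNAAAT, whose first match at Il4ra has the letters known as the octamer, was added to the search after the sequences were seen. It occurred at Il4ra 3 times, beginning at -139, -67 and -34 from the start on the plus strand, and at no other member. One match or more was present in 4.75% of all promoters and 3 or more in 5 promoters (0.0286%).

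The IL-4 library had a region over all 9 genes and the untreated library over 8, all except Il13ra1. Over all protein-coding genes the shares were 90% in the IL-4 library and 86.9% in the untreated library, so the members' counts lay near the background. At the start, meaning within 1 kb of it, 7 of 9 members had a region in each library. The background was 62.9% in the IL-4 library and 51.7% in the untreated library over the 17492 genes with a known strand. Il4ra, Jak1, Jak2, Jak3, Tyk2 and Irs2 had a start region in both libraries. Il13ra1 had one in the IL-4 library alone (background 14%) and Irs1 in the untreated library alone (background 2.78%). Il2rg had none in either.

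**Figure D1:**
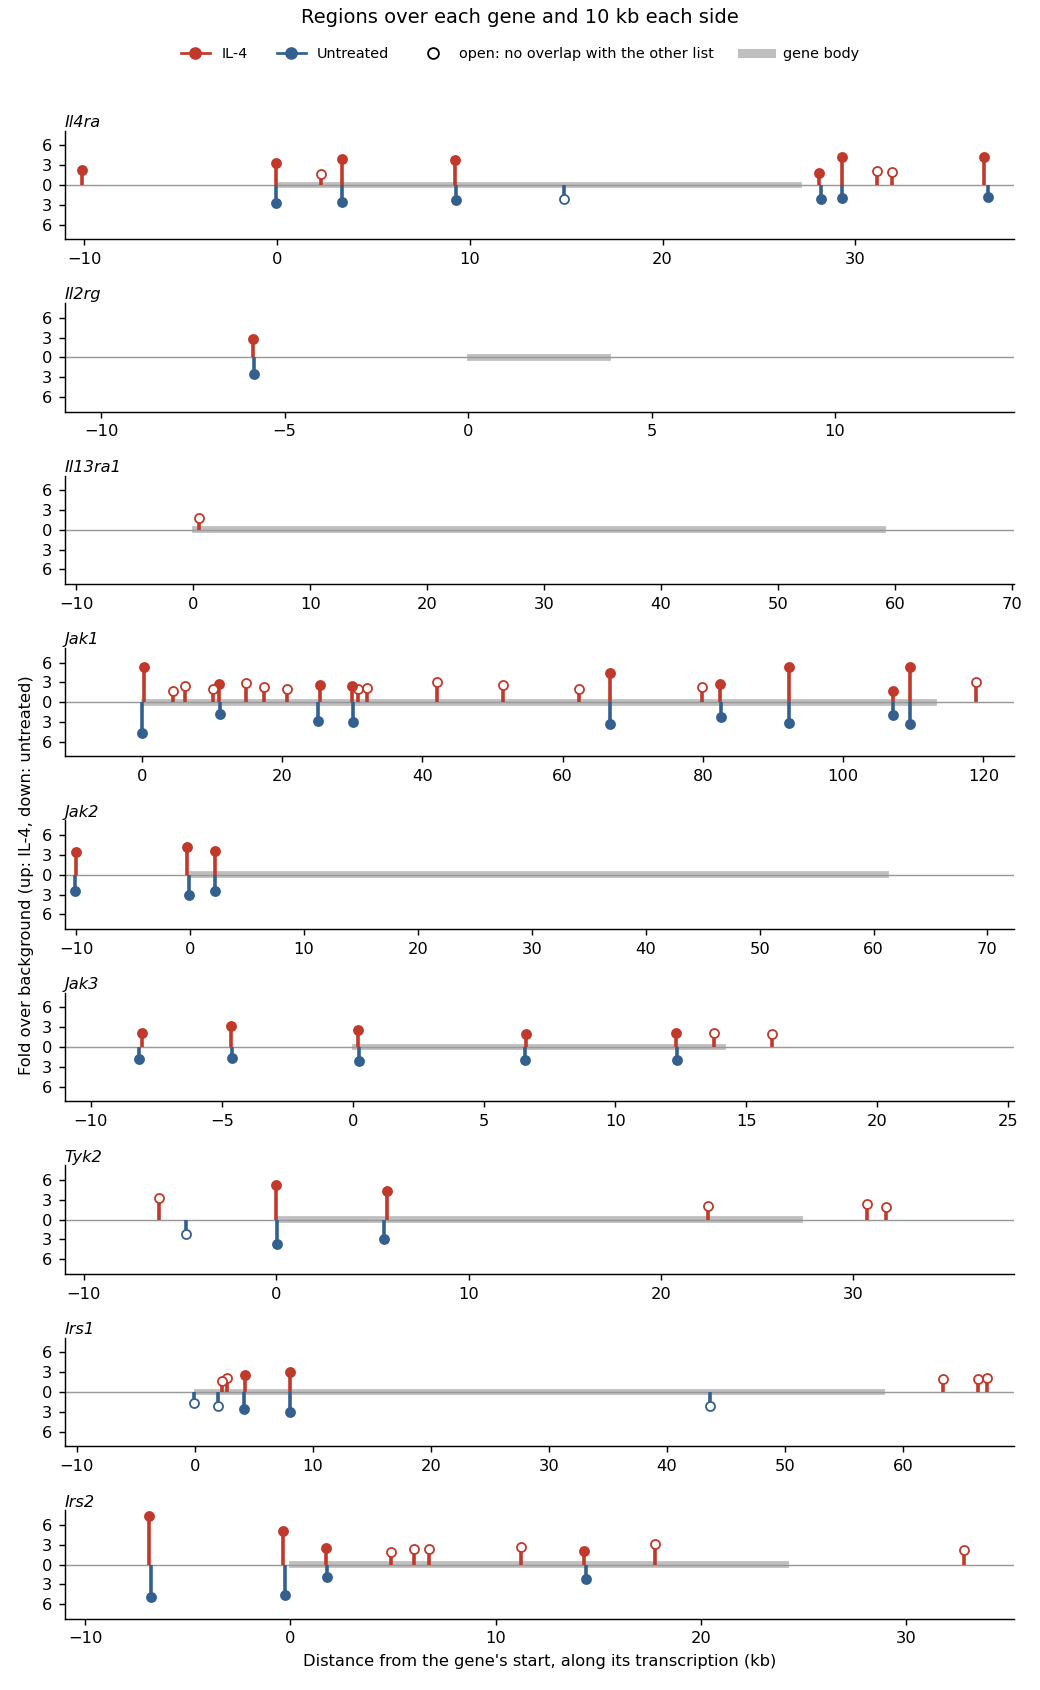
Regions over each gene and 10 kb each side. The horizontal axes give the distance of a region's centre from the gene's start in kb, along transcription, and the vertical axes the fold over background, with IL-4 regions drawn upwards and untreated regions downwards. Filled circles overlap a region of the other library and open circles do not: 34 of 67 IL-4 regions and 5 of 37 untreated regions are open. The highest line is the IL-4 region before Irs2, at a fold of 7.41.

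More regions were listed in the IL-4 library than in the untreated library at 7 of 9 members, against 68.8% of all protein-coding genes. The 2 exceptions were Il2rg and Jak2, with equal numbers. A region of fold 3 or more was present at 7 members in the IL-4 library (background 64.2%) and at 4 in the untreated library (background 46.1%). The median fold of the members' regions was 2.43 in the IL-4 library and 2.28 in the untreated library, beside 2.194 (IL-4) and 2.198 (untreated) over all regions of gene windows. The median width was 393 bp in the IL-4 library and 320 bp in the untreated library, beside 338 bp (IL-4) and 309 bp (untreated) over all regions of gene windows. Of the 67 IL-4 regions, 33 (49.3%, exact Clopper-Pearson 95% interval 36.8 to 61.8) overlapped an untreated region by at least 1 bp, against 45% of all IL-4 regions of gene windows. Of the 37 untreated regions, 32 (86.5%, 71.2 to 95.5) overlapped an IL-4 region, against 68.6%. These intervals cover counting error only. All 8 untreated regions of fold 3 or more were overlapped, against 99.5% of such regions of gene windows, so this was usual for strong regions. The 34 IL-4 regions without an untreated partner had a median fold of 2.14 and reached 3.20 at most. The median over all such IL-4 regions of gene windows was 2.08. Of the 34, 21 lay inside a gene body, beside 39 of all 67 IL-4 regions.

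**Figure D2:**
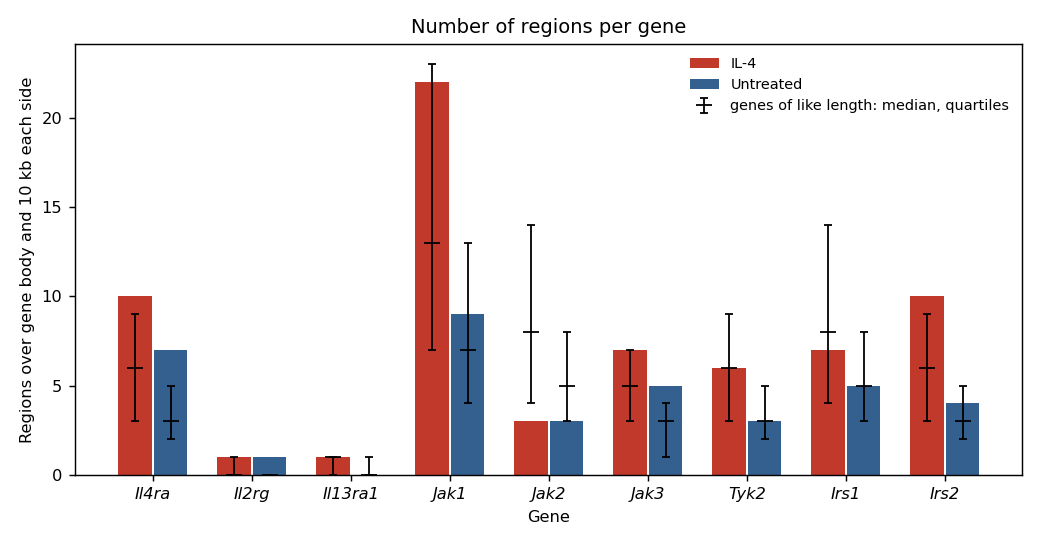
Number of regions per gene. Bars give regions over the gene body and 10 kb each side in the IL-4 and the untreated library, and black marks the median and quartiles of protein-coding genes whose window is within 20% of the same length and of the same kind of chromosome (X or autosome). Jak1 has 22 IL-4 and 9 untreated regions, and Jak2 has 3 of each, where genes of like length have a median of 8 IL-4 and 5 untreated regions.

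Il4ra (chromosome 7, 125552271 to 125579474, plus strand) carried 10 regions in the IL-4 library and 7 in the untreated library. The medians of genes of like length were 6 in the IL-4 library and 3 in the untreated library. It had the highest pileup ratio of the members with more than 1 shared region. Summed over its 6 shared regions the pileup was 504 fragments in the IL-4 library and 233 in the untreated library, a ratio of 2.16 (95% counting interval 1.85 to 2.54). That ratio was higher than in 98.2% of the 13930 protein-coding genes with 2 or more shared regions, whose median was 1.50. With the regions beyond the gene's ends left out it was 2.11 (1.72 to 2.60), higher than in 97.0% of 8238 genes.

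The Il4ra regions with high ratios among regions of their kind lay inside and past the gene, not at its start. The start region, chr7:125552032-125552405 in the IL-4 library, had a pileup of 88 in the IL-4 library and 51 in the untreated library, and its fold was 3.29 in the IL-4 library and 2.78 in the untreated library. Its ratio of 1.73 (1.21 to 2.49) lay at percentile 59.6 of start regions of like untreated pileup, within 20%. Inside the gene, the region 3.11 kb from the start had a pileup of 121 in the IL-4 library and 54 in the untreated library, a ratio of 2.24 (1.61 to 3.15) at percentile 96.6 of gene regions of like pileup away from starts. The region 9.16 kb from the start had 87 in the IL-4 library and 35 in the untreated library, a ratio of 2.49 (1.66 to 3.79) at percentile 98.9. These 2 intervals lay above the medians of like regions, 1.30 and 1.28, while the interval at the start held its median of 1.63.

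Past the finish of Il4ra lay the regions with the highest ratios. The region chr7:125581386-125581757, 1.91 kb past the gene, had a pileup of 94 in the IL-4 library, against 32 in the untreated library, and a fold of 4.15 in the IL-4 library, against 2.05 in the untreated library. Its ratio of 2.94 (1.95 to 4.54) was the highest of all 32 shared member regions and lay at percentile 99.7. The region chr7:125588643-125589201, 9.17 kb past the gene, had a pileup of 73 in the IL-4 library and 27 in the untreated library. Its fold was 4.21 in the IL-4 library and 1.88 in the untreated library, and its ratio of 2.70 (1.72 to 4.37) lay at percentile 99.2. The next gene in that direction is Il21r, the IL-21 receptor, whose start lies at 125603252. The region at the finish itself differed little, with 41 fragments in the IL-4 library and 34 in the untreated library and a ratio of 1.21 (0.747 to 1.96). The local background at the 6 regions was 16.6 to 30.6 fragments in the IL-4 library and 13.9 to 20.5 in the untreated library. Its ratio between the libraries was 1.45 to 1.49 at the first 5 regions, the finish region included, and 1.19 at the farthest one. Folds, which divide by it, were higher in the IL-4 library at 5 of the 6 regions. Of the regions without a partner, the untreated one 14.58 kb from the start had a fold of 2.15 and the 3 IL-4 ones had folds of 1.72 to 2.16. The IL-4 region 9.98 kb before the start, with a fold of 2.19, overlapped an untreated region that ended just outside the 10 kb.

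The other receptor chains carried little. Il2rg (chromosome X, 101264385 to 101268255, minus strand) had 1 region in each library, 5.65 kb before its start in the IL-4 library and 5.73 kb in the untreated library. It lay at the start of the neighbouring Med12, a subunit of the Mediator complex, and had a pileup of 47 and a fold of 2.85 in the IL-4 library, against 36 and 2.48 in the untreated library. Nothing was listed over Il2rg itself. Il13ra1 (chromosome X, 36112108 to 36171262, plus strand) had 1 IL-4 region at chrX:36112515-36112714, 0.41 kb inside the gene, and no untreated region. That region was 200.0 bp wide, with a pileup of 30, a fold of 1.84 and a −log10 q of 1.53, and it stood in the top 88.6% of the IL-4 list by fold. Its pileup is close to the lowest over the constant background in the IL-4 list, 26, and the untreated list, which reaches down to 23, holds nothing over the gene.

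The X chromosome held 0.425% of IL-4 regions and 0.460% of untreated regions, and 4.41% of protein-coding genes. Of its 966 genes, 41.2% had a region over the window in the IL-4 library and 29.8% in the untreated library, and of the 2 members on X both had one in the IL-4 library and 1 in the untreated library. At the start the shares were 26.4% in the IL-4 library and 15.7% in the untreated library, and of these 2 members 1 had one in the IL-4 library and 0 in the untreated library. Start regions were also rarer where CpG was low. Among X promoters with a CpG ratio under 0.2, as at Il2rg, 6.25% had a start region in the IL-4 library and 2.68% in the untreated library. From 0.6 to 0.8, as at Il13ra1, the shares were 57.2% in the IL-4 library and 35.5% in the untreated library. Autosomal shares under 0.2 were 37.5% in the IL-4 library and 26.6% in the untreated library. From 0.6 to 0.8 they were 84.9% in the IL-4 library and 74.0% in the untreated library. Il2rg, at 0.199, thus fell just inside the X class with the lowest share. In the next X class, from 0.2 to 0.4, the shares were 15.1% in the IL-4 library and 8.54% in the untreated library.

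**Figure D3:**
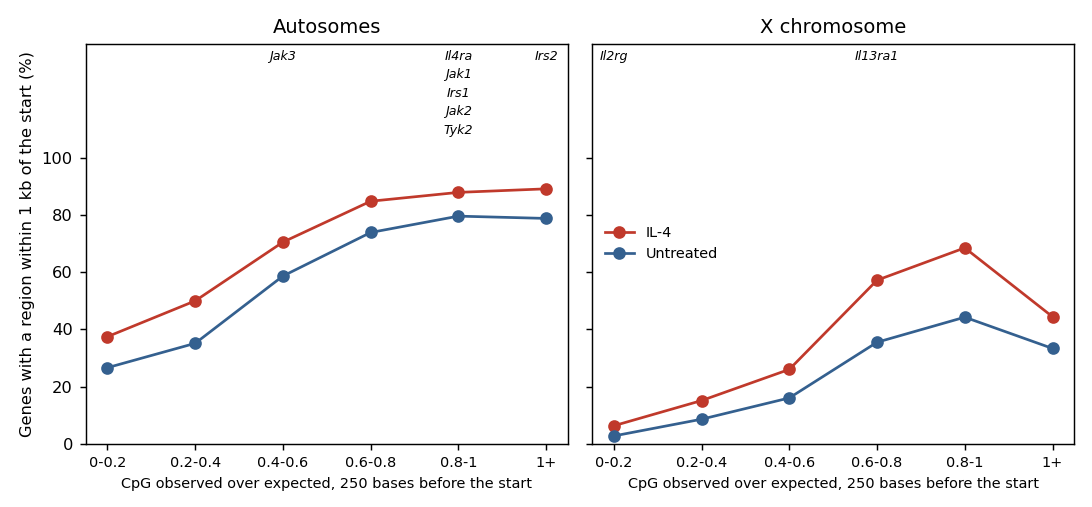
Share of genes with a region within 1 kb of the start, in percent, by the observed over expected CpG ratio of the 250 bases before it, for the autosomes (left) and the X chromosome (right). Lines join the IL-4 and the untreated values, and the names above each class show where the members fall. From the lowest to the highest autosomal class, IL-4 shares run from 37.5% to 89.3% and untreated shares from 26.6% to 78.9%. In the lowest X class, where Il2rg falls, they are 6.25% (IL-4) and 2.68% (untreated).

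Among the kinases, Jak1, attached to IL-4Rα, had the most regions of the set. Jak1 (chromosome 4, 101151974 to 101265282, minus strand) carried 22 regions in the IL-4 library and 9 in the untreated library, against medians of 13 (IL-4) and 7 (untreated) for genes of like length. Its body is also the longest of the members, at 113 kb. All 9 untreated regions were overlapped, and 13 IL-4 regions were not. Of 174 genes of like length whose untreated number was within 1 of that of Jak1, 80.5% had fewer IL-4 regions, with a median of 15. The 13 IL-4 regions without a partner had folds of 1.74 to 3.02 and lay along the body, apart from 1 that lay 5.49 kb past it, inside Raver2.

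The Jak1 start region, chr4:101264397-101265565, had a pileup of 89 in the IL-4 library and 69 in the untreated library, and its fold was 5.34 in the IL-4 library and 4.69 in the untreated library. The IL-4 region was 1169 bp wide, against 455 bp in the untreated library. Its pileup ratio of 1.29 (0.931 to 1.79) lay at percentile 9.10 of start regions of like pileup. Inside the gene the ratios were uneven. They were 2.06 (1.44 to 2.99) at 109.36 kb and 2 (1.38 to 2.93) at 92.16 kb from the start, both above the medians of like regions. They were 1.05 (0.668 to 1.65) at 24.46 kb and 0.953 (0.606 to 1.50) at 29.99 kb. The last, with 41 fragments in the IL-4 library and 43 in the untreated library, was the only one of the 32 shared regions that was not higher in the IL-4 library. The intervals of the high and the low group overlapped. The region at 24.46 kb was the widest of the members in both libraries, at 1526 bp in the IL-4 library and 1411 bp in the untreated library.

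Jak2 (chromosome 19, 29251803 to 29313095, plus strand) was sparse for its length. Each library had 3 regions, which overlapped one to one, against medians of 8 in the IL-4 library and 5 in the untreated library for genes of like length. Only 9.64% of such genes had fewer IL-4 regions. The start region, chr19:29251066-29252016, had pileups of 69 in the IL-4 library and 45 in the untreated library, and its fold was 4.15 in the IL-4 library and 3.08 in the untreated library. The region 2 kb inside the gene had 60 fragments in the IL-4 library and 36 in the untreated library. The one 9.89 kb before the gene had 58 in the IL-4 library and 36 in the untreated library. The 3 ratios, 1.53 to 1.67, differed by less than their counting intervals, and no region was listed over the rest of the body.

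Jak3 (chromosome 8, 71676383 to 71690577, plus strand), the kinase of the common γ chain, had the weakest regions among the kinases. It carried 7 regions in the IL-4 library and 5 in the untreated library, against medians of 5 (IL-4) and 3 (untreated) for genes of like length. The start region, chr8:71676239-71676867, had a pileup of 44 in the IL-4 library and 31 in the untreated library. Its fold was 2.60 in the IL-4 library, at percentile 29.1 of all genes with a start region, and 2.15 in the untreated library, at percentile 14.4. Its strongest region in the IL-4 library lay 4.50 kb before the gene at the start of Unc13a, a synaptic vesicle priming gene, with 52 fragments and a fold of 3.13 in the IL-4 library, against 24 fragments and a fold of 1.68 in the untreated library. The ratio there was 2.17 (1.31 to 3.68), and its interval held the median of like regions away from starts, 1.41. At the far end of Jak3, a shared region of fold 2.17 in the IL-4 library and 2.01 in the untreated library, and an IL-4 region of fold 2.14 with no partner, lay within 1 kb of an end of Insl3, which overlaps the end of Jak3. A last IL-4 region of fold 2.02, 1.68 kb past the gene, lay within 1 kb of an end of B3gnt3. Regions near such neighbours cannot be assigned to one gene.

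Tyk2 (chromosome 9, 21104068 to 21131393, minus strand) had 6 regions in the IL-4 library and 3 in the untreated library, equal to the medians of genes of like length, and its highest fold in each library was at the start. The start region, chr9:21131021-21131749, had pileups of 99 in the IL-4 library and 55 in the untreated library, and its fold was 5.20 in the IL-4 library and 3.62 in the untreated library. The ratio of 1.80 (1.28 to 2.55) was the highest among the shared start regions. A region 5.37 kb inside the gene had 73 fragments and a fold of 4.39 in the IL-4 library, against 42 and 2.88 in the untreated library. Before the gene, an IL-4 region at 5.80 kb (fold 3.20, the highest of the members' regions without a partner) and an untreated region at 4.56 kb (fold 2.19) lay 0.96 kb apart and did not overlap. The pileup summed over both shared regions was 172 in the IL-4 library and 97 in the untreated library, a ratio of 1.77 (1.37 to 2.30), higher than in 81.7% of genes.

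The folds of the 6 start regions present in both libraries were higher in the IL-4 library at all 6, against 88.6% of the 8557 genes with a start region in both, so the direction is that of most genes. Jak1, Tyk2 and Irs2 had the highest IL-4 start folds, 5.07 to 5.34, and stood at percentiles 72.0 to 74.8. Jak2 lay at 58.8, Il4ra at 44.2, Jak3 at 29.1 and Il13ra1 at 2.34. The median start fold of all genes with such a region was 3.62 in the IL-4 library and 2.95 in the untreated library.

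**Figure D4:**
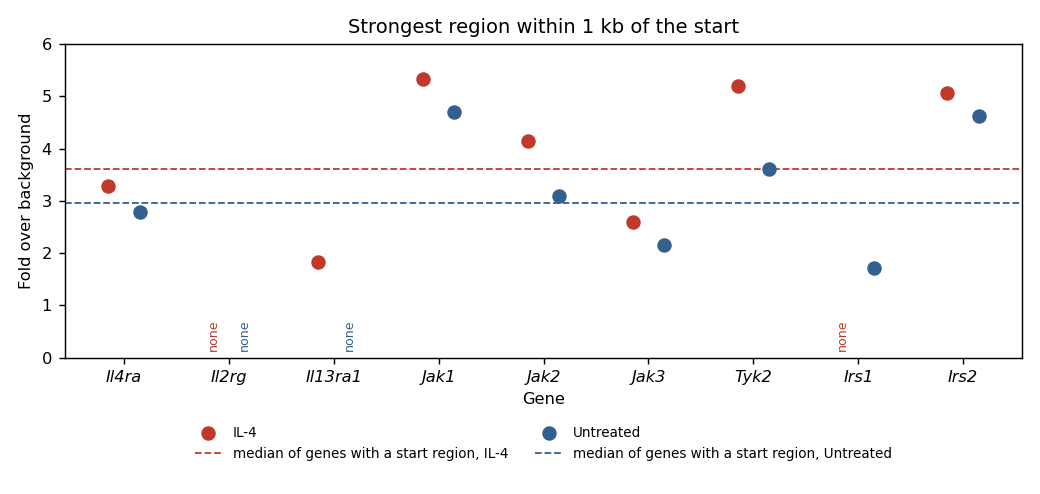
Fold over background of the strongest region within 1 kb of each gene's start, in the IL-4 and the untreated library (1 value each, no error). Dashed lines give the medians of all genes with a start region, 3.62 (IL-4) and 2.95 (untreated), and "none" marks a gene with no such region. Jak1, Jak2, Tyk2 and Irs2 lie above both medians of their libraries, and Il4ra, Jak3, the IL-4 value of Il13ra1 and the untreated value of Irs1 below them.

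Irs2 (chromosome 8, 10984681 to 11008929, minus strand), the adaptor linked with alternative activation, had the strongest region of the set. It lay 6.45 kb before the start, at chr8:11015382-11016278 in the IL-4 library and chr8:11015417-11015999 in the untreated library. It had a pileup of 124 and a fold of 7.41 in the IL-4 library, where it stood in the top 0.645% of the list. In the untreated library it had 73 and 4.96 and stood in the top 1.50%. It lies inside 9530052E02Rik, a non-coding RNA gene with an end inside Irs2. The start region, chr8:11008727-11009881, had a pileup of 122, a fold of 5.07 and a width of 1155 bp in the IL-4 library, against 77, 4.63 and 1149 bp in the untreated library, and it lies over both genes. Pileup ratios were 1.70 (1.26 to 2.30) at the upstream region and 1.58 (1.18 to 2.14) at the start, at percentiles 72.6 and 40.6 of like regions. Irs2 had 10 regions in the IL-4 library and 4 in the untreated library, and the 6 IL-4 regions without a partner had folds of 1.94 to 3.08. Of 1700 genes of like length and a similar untreated number, 84.8% had fewer IL-4 regions, with a median of 6.

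Irs1 (chromosome 1, 82233105 to 82291439, minus strand) had weaker regions and the lowest summed ratio. It had 7 regions in the IL-4 library and 5 in the untreated library, close to the medians of 8 (IL-4) and 5 (untreated) for genes of like length. Its highest fold was 3.02 in the IL-4 library and 2.95 in the untreated library. The start region, chr1:82291319-82291695, was in the untreated list alone, with a pileup of 29, a fold of 1.72 and a −log10 q of 0.919. The nearest IL-4 region lay 2.03 kb from it. Local background was 16.5 fragments at the untreated start region and 20.8 at that IL-4 region, above the constant values. A higher background raises the pileup needed for listing, and IL-4 signal below that limit was not tested. Both libraries shared a wide region 3.64 kb inside the gene, 1065 bp in the IL-4 library and 1017 bp in the untreated library, with a pileup of 57 in the IL-4 library and 45 in the untreated library. A shared region at 7.85 kb had 50 in the IL-4 library and 43 in the untreated library. The summed ratio of 1.22 (0.908 to 1.63) was higher than in 16.3% of genes. An untreated region 1.89 kb inside the gene and an IL-4 region at 2.15 kb stopped 0.02 kb short of each other and so counted as unshared. The 3 IL-4 regions past the gene had folds of 2.02 to 2.08.

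Summed over all 32 shared regions the pileup was 2138 in the IL-4 library and 1302 in the untreated library, a ratio of 1.64 (1.53 to 1.76). The ratio was above 1 at 31 of 32 regions, against 88.7% of the 63476 shared regions of gene windows. The fold was higher in the IL-4 library at 27 of 32, against 67.1%. The median ratio was 1.60, beside 1.33 for all shared regions of gene windows and 1.60 for those at starts. Set against regions of like pileup and place, 22 of 32 members' regions lay above the median. Place was judged by the member's own start, so the regions at the starts of Med12 and Unc13a were set against regions away from starts. The counting interval left out the median of like regions at 6, of which 4 were at Il4ra and 2 at Jak1. The share of all shared regions of gene windows that do so was not counted. Whether 6 of 32 is unusual was therefore not tested. By gene the summed ratios were 2.16 at Il4ra, 1.77 at Tyk2, 1.62 at Jak3, 1.60 at both Jak2 and Irs2, 1.47 at Jak1 and 1.22 at Irs1. The interval of Il4ra, 1.85 to 2.54, lay above that of Jak1, 1.29 to 1.68, and of Irs1, 0.908 to 1.63, and overlapped the intervals of the others. Neighbours in the order did not differ beyond their intervals. Pileups are not scaled for depth, and the ratio of the constant backgrounds was 1.14.

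**Figure D5:**
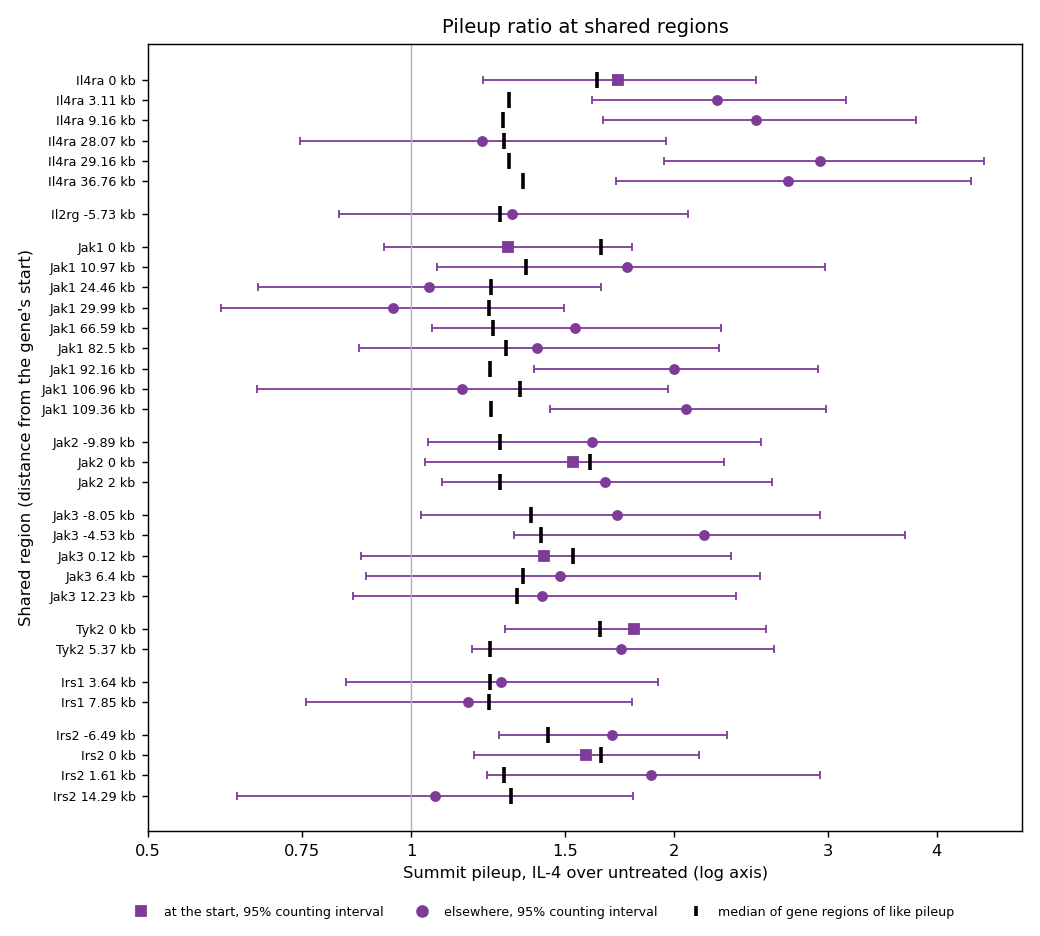
Pileup at the summit in the IL-4 library over that in the untreated library, on a log axis, for the 32 shared regions, by gene and distance from its start in kb. Squares are start regions and circles other regions, bars are 95% intervals for counting error only, and black ticks are medians of gene regions of like untreated pileup. Of the Il4ra regions 4 lie at 2.24 to 2.94 with intervals above the tick, while its start (1.73) and finish (1.21) regions do not.

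Related genes were listed next to this set. Of 11 receptor relatives, 7 had a start region in the IL-4 library and 3 in the untreated library. Those in the IL-4 library alone were Il13 (the cytokine IL-13, fold 2.48), Il21r (the IL-21 receptor, 2.28), Il7r (the IL-7 receptor, 2.85) and Irs3 (an insulin receptor substrate, 1.79). Il9r, a receptor chain that pairs with the common γ chain, had folds of 5.50 in the IL-4 library and 5.24 in the untreated library. Il15ra, the IL-15 receptor, had 2.68 in the IL-4 library and 2.07 in the untreated library. Il2rb, the β chain of the IL-2 receptor, for which no strand was known, had 2.08 at an end in the IL-4 library and 2.30 in the untreated library. Il13ra2, Il2ra, Il4 and Irs4 had no start region in either library. Of 30 signalling partners downstream of the receptor, 29 had a start region in the IL-4 library and 27 in the untreated library. For the 4 partners without a known strand, a region at either end counted. Pik3cg (a leukocyte PI3K subunit, 3.02) and Ptprc (the phosphatase CD45, 2.08) had a start region in the IL-4 library alone, and Ptpn1, a phosphatase acting on JAKs, in neither. Over its body and 10 kb each side, Ptpn1 held 12 IL-4 and 11 untreated regions, with highest folds of 6.91 (IL-4) and 6.12 (untreated). At the start, the highest IL-4 folds were those of the transcription factor Stat3 (8.09, against 7.04 in the untreated library), the PI3K subunits Pik3r1 (7.80, against 6.22) and Pik3ca (7.47, against 5.77) and the adaptor Grb2 (6.05, against 3.69). The adaptor Shc1 had a start fold of 5.05 in the IL-4 library and 5.38 in the untreated library. Stat6, which docks on IL-4Rα, had 4.21 in the IL-4 library and 2.88 in the untreated library. Over all genes with a known strand 62.9% had a start region in the IL-4 library and 51.7% in the untreated library. A start region in the IL-4 library alone was present at 14% of them, beside 4 of 11 relatives and 2 of 30 partners. Nothing particular to these lists was tested.

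For each member, the protein-coding gene most like it was found by the summed absolute difference in log2 of region numbers, highest folds and window length over the 2 libraries. These were Sord for Il4ra (difference 0.24), Gm614 for Il2rg (0.08), Ocrl for Il13ra1 (0.10), Myom1 for Jak1 (0.41) and Simc1 for Jak2 (0.29). They were Slc25a23 for Jak3 (0.30), Znfx1 for Tyk2 (0.09), Fam124a for Irs1 (0.20) and Pold1 for Irs2 (0.41). Znfx1, for example, had 6 IL-4 and 3 untreated regions, as Tyk2 did, with highest folds of 4.98 in the IL-4 library and 3.69 in the untreated library.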

How the data were processed

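PHLPP1 CUT&Tag was run on 1 IL-4 and 1 untreated library of mouse alveolar macrophages. Bowtie 0.12.8, MACS2 2.2.7.1, DiffBind and mm10 are named per the submitters' processing notes, without roles. The deposited lists give each region's fold (a ratio of summit pileup to background), −log10 p, −log10 q and a score equal to 10 times the −log10 p, all as the authors' caller wrote them, with no −log10 p below 2. Pileup and background were solved from the deposited fold and −log10 p, and 100% of pileups were whole within 0.05. This step was tested on simulated data.

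Gene ends came from RefSeq on GRCm38.p6, and strand from its promoter table for 17492 of 21887 protein-coding genes. For the 4395 without strand, either end counted as a start. Exon, intron and UTR positions were not analysed here. Regions overlapped when they shared at least 1 bp. Intervals of shares are exact (Clopper-Pearson) and those of pileup ratios exact from the binomial, at 95%. Pileups were compared with those of shared regions within 20% of the same untreated pileup. Regions at a member's own start were set against start regions, and all others against regions away from starts.

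The members and lists were chosen with earlier results of these data known. Always named were the 9 members. From the 41 list genes came those with a start region in 1 library alone and the 4 of highest start fold per library and list. Neighbours with an end within 1 kb of a described region and the most similar gene per member were also named. Any other gene, and ATGNAAAT, was chosen after its values were seen. Versions were Python 3.11.15, numpy 2.4.6, scipy 1.17.1, pandas 2.3.3 and matplotlib 3.10.9.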

Additional observations from a re-analysis of the deposited data

How the results depend on the processing

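No paired analysis was possible because each group held 1 library. Of 45 alternative values, 35 stayed close to the value reported and 10 moved. With the −log10 q held to 5 or more, the members' regions numbered 32 in the IL-4 library and 15 in the untreated library. At a fold of at least 3 they numbered 21 in the IL-4 library and 8 in the untreated library, and 4 members had a region in the untreated library, all 4 at the start, with 100% of its regions overlapped. With 25 kb each side there were 103 regions in the IL-4 library and 59 in the untreated library. When the overlap had to cover at least 50% of both regions, 67.6% of untreated regions did. The pileup ratio at shared regions was 1.58 to 1.69 under its alternatives, and cutting the IL-4 list to the length of the untreated list left 54 IL-4 regions. The lists hold only regions past a p limit. Over the constant background, a signal below about 26 fragments in the IL-4 library and 23 in the untreated library was not listed. Where the local background was higher, more fragments were needed.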

Other observations

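Regions over the body and 10 kb each side were also counted for related cytokine, receptor and substrate genes. Over all protein-coding genes the median was 5 regions in the IL-4 library and 3 in the untreated library. Such windows differ in length and are wider than the start windows. Whether these genes differ from others was not tested. Il21r, the gene next to Il4ra, carried 12 regions in the IL-4 library and 9 in the untreated library over its body and 10 kb each side, with highest folds of 4.82 (IL-4) and 3.08 (untreated). Il2ra, the α chain of the IL-2 receptor, had no start region but held 6 IL-4 and 3 untreated regions, the strongest with folds of 4.80 (IL-4) and 4.76 (untreated). The cytokine gene Il4 had 5 regions in the IL-4 library and 1 in the untreated library, with highest folds of 3.44 (IL-4) and 1.91 (untreated). Its neighbour Il13 had 7 IL-4 and 4 untreated regions. The windows of Il4 and Il13 overlap, so a region between the genes can count for both. Irs3 had 5 regions in the IL-4 library and none in the untreated library, with a highest fold of 2.99. On the X chromosome Irs4 and Il13ra2 had no region in either library. These genes were picked out after their values were seen.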
